A study of Mus musculus with 1152 samples.

Results

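Microglia of the hippocampus were set against microglia of the cerebellum within 5xFAD mice. The 5xFAD line carries human transgenes with familial Alzheimer mutations, driven by the neuronal Thy1 promoter, and deposits amyloid heavily in cortex and hippocampus and sparsely in cerebellum (background, not measured in these files). Both groups had the 5xFAD genotype on the C57BL/6J strain label. The series states that the regions were taken from the same mice, so the 3 hippocampal and 3 cerebellar samples need not be independent animals. Neither age nor sex is stated in the sources used. The cells were sorted after staining for CD11b, CD45, Ly6C, Ly6G and CD206, 1 cell to a well of a 384-well plate. Libraries were made by Smart-seq2, which covers whole transcripts and carries no molecular identifiers. Wells were chosen by label and then by quality: a minimum of 500 detected genes and of 10000 gene reads, and no more than 20% of reads from mitochondrial genes. This left 347 of the 1041 kept wells of the series, 154 from 5xFAD hippocampus (50, 58 and 46 for replicates 1 to 3) and 193 from 5xFAD cerebellum (62, 59 and 72). Wells of a mouse were summed, and the 6 sums held 14052544 to 18745620 reads in hippocampus and 17905087 to 26669220 reads in cerebellum. WT hippocampus (182 wells) and WT cerebellum (162 wells), both of C57BL/6J mice with 4 replicates each, served for the comparisons with WT. These sums and those of 5xFAD and WT cortex also entered the 1 fit of all 22 sums. That fit set the gene filter and the spread behind the SE and adjusted p of the contrast.

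Microglia are the resident macrophages of the brain and survey it through receptors such as P2ry12 and Cx3cr1. Near amyloid plaques, mouse microglia are known to switch on a disease-associated program in which the surface receptor Trem2 signals through its adaptor Tyrobp, and in which lysosomal proteases, lipid carriers and secreted factors are made in larger amounts. The lysosome of a phagocyte breaks down what it engulfs with cathepsins and glycosidases.

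All 10 microglia markers had reads, and their summed level was 56411 to 62131 CPM (reads per 1e6 reads of the library size after TMM scaling) in hippocampus and 54841 to 58993 CPM in cerebellum. Markers of border macrophages, which line the meninges and vessels, summed to 3.71 to 18.1 CPM in hippocampus and 273 to 554 CPM in cerebellum. Neutrophil markers summed to 779 to 926 CPM in hippocampus and 469 to 7298 CPM in cerebellum, and monocyte markers to 13.7 to 28.2 CPM in hippocampus and 56.6 to 321 CPM in cerebellum. No T or NK cell marker was high enough to be tested. A well with at least 3 markers of 1 such other cell type at 10 CPM or more was found 5 times among 154 hippocampal wells and 24 times among 193 cerebellar wells, and 0 hippocampal and 13 cerebellar wells were of the border macrophage kind. Both groups lay on the same plate, hippocampus in plate columns 1 to 11 and cerebellum in columns 12 to 24, so region and plate position cannot be told apart. Blank wells of that plate, 4 in number, held 4995 to 8422 reads and 214 to 279 genes.

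Of the genes that passed, most were higher in hippocampal than in cerebellar 5xFAD microglia, among them 8 lysosome genes, Trem2 and its adaptor Tyrobp, and 8 genes of the mitochondrial genome. Of 17358 genes tested with edgeR's quasi-likelihood test, 38 passed a Benjamini-Hochberg adjusted p of 0.05, which is 0.219% of the genes tested. Of these, 36 were higher in hippocampus (0.207%) and 2, Tgfbi and Lpar6, were lower (0.0115%). At an unadjusted p of 0.05 the counts were 845 higher (4.87%) and 508 lower (2.93%). The lowest hippocampal mouse lay above the highest cerebellar mouse for 1267 genes (7.3%), and the reverse held for 1015 (5.85%). The median log2 fold change of all genes was 0.03, with 8884 of the 17358 positive and 8284 negative. The count and its balance differed between fits. With only the 6 sums of the contrast, where 13065 genes were tested, 5 genes passed, namely Fcrls higher and the MHC class II genes H2-Eb1, H2-Aa, H2-Ab1 and Cd74 lower, whereas DESeq2 called 349 (212 higher, 137 lower) and limma-voom 276 (202 higher, 74 lower), which held all 38 and 36 of the 38. With no filter on low counts 107 passed, 55 higher and 52 lower. Without the wells that held markers of other cell types 34 genes passed, 29 of them among the 38. Averaging wells on a log scale in place of summing reads called 50 genes (37 higher, 13 lower), 6 of them among the 38, and gave a fold change over 1.5 times smaller for 22 of the 38 and over 1.5 times larger for 5.

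**Figure D1:**
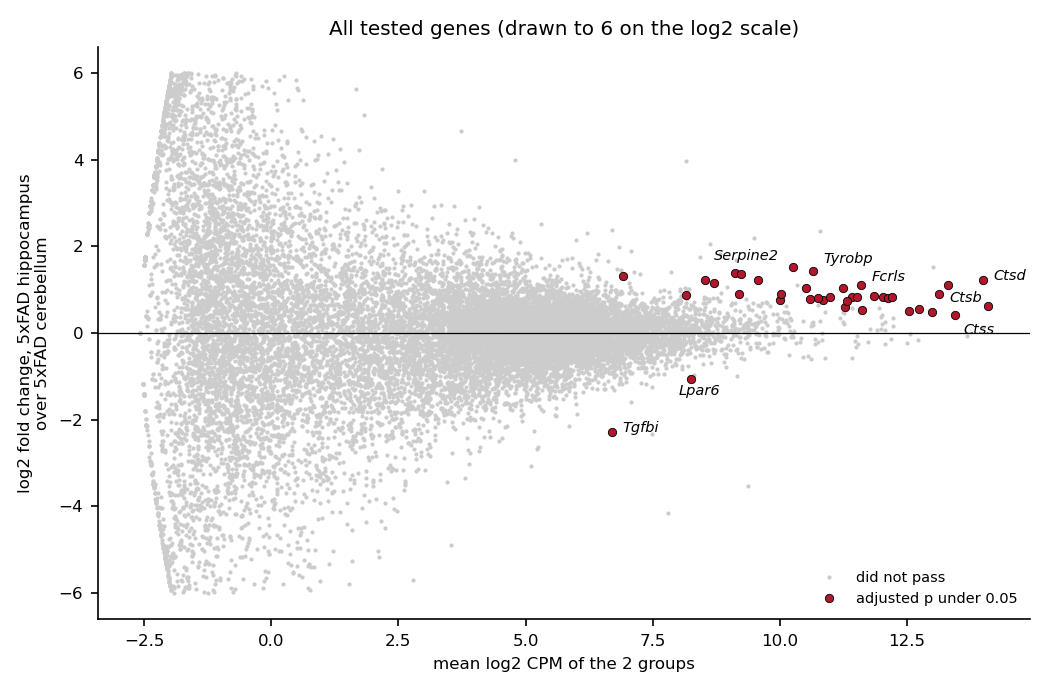
Points are tested genes with a fold change of at most 6 in size on the log2 scale, with the mean log2 CPM of both groups on the x axis and the log2 fold change of 5xFAD hippocampus over 5xFAD cerebellum on the y axis. The 38 genes with an adjusted p under 0.05 are red; 36 lie above 0, most of them at high levels, and Tgfbi and Lpar6 lie below.

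The 7 genes that passed in every fit leaving out 1 of the 6 sums were Fcrls, Ctsd, Tyrobp, Ctsb, Ctsl, mt-Nd5 and mt-Rnr2. Lag3, Ldhb and Lpar6 passed in 0 of the 6 fits. Pld3, Npc2, Ctss, Fth1, Eef1a1, Sparc, Timp2, Abhd12, mt-Rnr1, mt-Nd4 and mt-Nd6 each passed in 1 of the 6. Without cerebellum replicate 2 the count of passing genes was 12 and without cerebellum replicate 3 it was 7. Without hippocampus replicate 1 it was 18 and without hippocampus replicate 2 it was 16.

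Aspartyl and cysteine proteases of the lysosome were among the most abundant of the higher genes. Ctsd, which encodes cathepsin D, the main aspartyl protease of the lysosome (chromosome 7, 142375911 to 142388038, GRCm38), had 27600, 24664 and 24042 CPM in hippocampus, against 14422, 7503 and 10653 CPM in cerebellum. The groups did not overlap, and cerebellum replicate 1 lay closest to the hippocampal mice. The log2 fold change was 1.23 ± 0.15 (SE; adjusted p = 0.000227, edgeR). Of 13 alternative fits that kept every replicate, Ctsd passed in 10. It did not pass with limma-voom, where the log2 fold change was 1.52 (adjusted p = 0.822). Nor did it pass with only the sums of the contrast (adjusted p = 0.234, edgeR) or with the columns as deposited (adjusted p = 0.568, edgeR). Ctsb, cathepsin B (chromosome 14, 63122462 to 63145923), had 12018, 12082 and 13286 CPM in hippocampus and 7906, 5327 and 6742 CPM in cerebellum, a log2 fold change of 0.90 ± 0.11 (adjusted p = 0.000227, edgeR). Ctsl, cathepsin L (chromosome 13, 64359337 to 64370890), had 3459, 3279 and 3827 CPM in hippocampus and 1984, 1220 and 1915 CPM in cerebellum, a log2 fold change of 1.04 ± 0.15 (adjusted p = 0.00143, edgeR). For both genes every hippocampal mouse stood above every cerebellar mouse.

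Ctsz, cathepsin Z, had 5715, 6204 and 5973 CPM in hippocampus and 4454, 2790 and 3005 CPM in cerebellum (0.80 ± 0.13 on the log2 scale), and Ctss, cathepsin S, which trims invariant chain in antigen-presenting cells, differed by 0.42 ± 0.08. The difference of Ctsd was present across wells: the median well of a mouse had 13543, 14643 and 17206 CPM of Ctsd in hippocampus, against 9892, 7129 and 9358 CPM in cerebellum, and the well at the 90th percentile had 53984, 36172 and 43974 CPM in hippocampus, against 28450, 12547 and 18206 CPM in cerebellum. Ctsd reads were found in 99.4% of hippocampal and 99.0% of cerebellar wells, and in all 4 blank wells. A sum over wells alone could not tell fewer cells with a transcript from less of it per cell.

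Beyond the cathepsins, Hexa, which takes part in the breakdown of gangliosides, differed by 0.83 ± 0.14, Npc2, which hands cholesterol out of the lysosome, by 0.91 ± 0.18, and Cd68, a lysosomal membrane glycoprotein of phagocytes, by 0.78 ± 0.14. Pld3, a lysosomal phospholipase D family member, had 937, 1120 and 964 CPM in hippocampus and 549, 203 and 416 CPM in cerebellum, a log2 fold change of 1.37 ± 0.28 (adjusted p = 0.0367, edgeR). Of 42 genes tested in the lysosome list, 8 were higher, 0 lower and 34 did not pass (0.207% of all genes were higher). The list does not hold every passing gene named above. Its median log2 fold change was 0.33, against 0.03 over all genes. With the mean of log values over wells Ctsd was 0.93, Ctsb 0.37, Ctsz 0.22, Ctss 0.05, Hexa 0.32 and Pld3 2.45. Ctsd and Pld3 passed there (adjusted p = 0.0409 and 0.0128, limma). Ctsb, Ctsz, Ctss and Hexa did not (adjusted p = 0.794, 0.94, 0.992 and 0.93, limma). Grn, progranulin, was among the 34 list genes that did not pass in the fit of all sums, at 0.58 ± 0.13 (adjusted p = 0.0674, edgeR).

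Upstream sequences are shown for passing genes because several of them serve the lysosome, and CACGTG is the core of the E-box bound by TFEB, a regulator of lysosomal genes. The windows were the 250 bases before the RefSeq start (GRCm38.p6). The gene spans given above are from GENCODE, whose start lies further upstream for Ctsd, Ctsl and Fcrls, so that the second Ctsd stretch and those of Ctsl and Fcrls below fall inside that span. CACGTG, which reads alike on both strands, occurred in 6.86% of 27025 genes with a window, and in 2 of the 22 higher genes that have one, Ctsd and Ctsl. GGAAGT, an ETS-type core of the kind the myeloid factor PU.1 binds, searched on both strands, occurred in 22.2% of genes and in 4 of the 22, C1qb, Eef1a1, Fcrls and Pld3. A match is a description, not a site or a cause. The stretches below are written 5′ to 3′ on the strand of the gene, with a match in capitals.
Ctsd, chr7:142388055-142388077, minus strand: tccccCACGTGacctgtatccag
Ctsd, chr7:142387908-142387937, minus strand: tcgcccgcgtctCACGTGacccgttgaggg
Ctsl, chr13:64370739-64370768, minus strand: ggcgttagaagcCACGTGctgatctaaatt
Fcrls, chr3:87263582-87263611, minus strand: gacaactttgccACTTCCtttttttcctat
Pld3, chr7:27553238-27553267, minus strand: gccgcccgccccGGAAGTcctgcccttgat

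The Trem2 receptor and its adaptor were higher in hippocampus. Tyrobp, which encodes the adaptor DAP12 (chromosome 7, 30413760 to 30417585), had 3137, 2684 and 2193 CPM in hippocampus and 1273, 752 and 964 CPM in cerebellum. The lowest hippocampal mouse was well above the highest cerebellar one, and the log2 fold change was 1.42 ± 0.17 (adjusted p = 0.000227, edgeR). Trem2, the lipid-sensing receptor that signals through it (chromosome 17, 48346401 to 48354147), had 3568, 3217 and 3211 CPM in hippocampus and 2274, 1932 and 1801 CPM in cerebellum, a log2 fold change of 0.73 ± 0.12 (adjusted p = 0.00446, edgeR); without cerebellum replicate 3 it did not pass. Tyrobp was read in 98.1% of hippocampal and 99.5% of cerebellar wells, and the median well of a mouse had 1690, 1252 and 1559 CPM in hippocampus, against 945, 740 and 853 CPM in cerebellum. With the mean of log values over wells Tyrobp was 0.79 and Trem2 0.45, and neither passed (adjusted p = 0.357 and 0.806, limma). The 250 bases before the Trem2 start held neither motif, while those before C1qb held the ETS-type core once.
Trem2, chr17:48346151-48346400, plus strand: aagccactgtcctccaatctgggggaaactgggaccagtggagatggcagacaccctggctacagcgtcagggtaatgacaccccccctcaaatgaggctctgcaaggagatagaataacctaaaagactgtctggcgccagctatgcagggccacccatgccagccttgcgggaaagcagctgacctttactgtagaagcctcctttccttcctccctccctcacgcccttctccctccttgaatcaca
C1qb, chr4:136886201-136886450, minus strand: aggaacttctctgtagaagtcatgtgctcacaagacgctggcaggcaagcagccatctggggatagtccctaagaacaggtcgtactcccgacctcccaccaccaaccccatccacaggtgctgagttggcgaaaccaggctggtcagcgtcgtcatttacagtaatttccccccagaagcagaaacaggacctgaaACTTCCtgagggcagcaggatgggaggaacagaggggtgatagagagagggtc

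Fcrls, an Fc receptor-like molecule found in mouse microglia (chromosome 3, 87250758 to 87263738), had the smallest p of all genes. It had 4326, 4443 and 4921 CPM in hippocampus and 2116, 2084 and 2160 CPM in cerebellum. The mice within each region lay close together, and the log2 fold change was 1.11 ± 0.11 (adjusted p = 3.26e-05, edgeR). C1qb, a chain of complement C1q, differed by 0.49 ± 0.09 (adjusted p = 0.0216, edgeR). The list named for Fc and complement receptors had 23 genes tested. Of these, 4 were higher, Fcrls, Tyrobp, Trem2 and C1qb, 0 were lower and 19 did not pass. Tyrobp and Trem2, described above, are neither Fc nor complement receptors. Over all genes 0.207% were higher, and the list median was 0.35. The signalling chain Fcer1g was 0.62 ± 0.14 (adjusted p = 0.0601, edgeR) and the inhibitory Fc receptor Fcgr2b 0.70 ± 0.16 (adjusted p = 0.0728, edgeR). Ly86, which encodes MD-1, a partner of the Toll-like receptor homologue RP105, had 2557, 2565 and 3063 CPM in hippocampus and 1885, 1344 and 1358 CPM in cerebellum (0.84 ± 0.14). Lag3, a checkpoint receptor that binds MHC class II, had 766, 1017 and 955 CPM in hippocampus and 377, 317 and 346 CPM in cerebellum (1.40 ± 0.30, adjusted p = 0.0478, edgeR), and it lost its call whichever of the 6 sums was left out; with the mean of log values over wells it was 2.49.

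**Figure D2:**
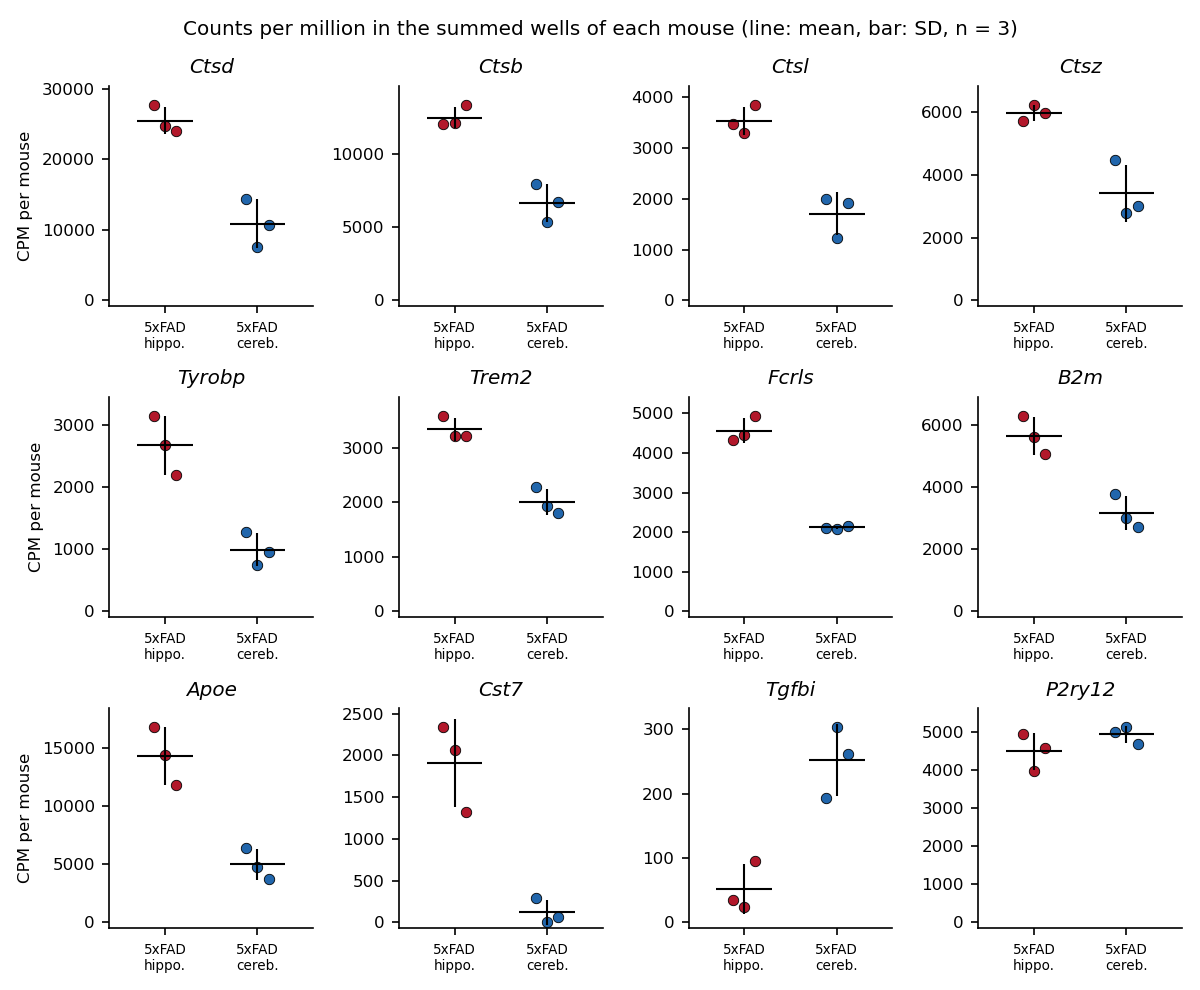
CPM of 12 genes in the summed wells of each mouse, 5xFAD hippocampus at the left of each panel and 5xFAD cerebellum at the right; the line is the mean and the bar the SD of 3 mice. In the panels of Ctsd, Ctsb, Ctsl, Ctsz, Tyrobp, Trem2, Fcrls, B2m, Apoe and Cst7 every hippocampal mouse is above every cerebellar mouse, Tgfbi shows the reverse, and the mice overlap for P2ry12.

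Of the 45 genes of the disease-associated program, all tested, 12 were higher in hippocampus, 0 lower and 33 did not pass (0.207% of all genes were higher). Of the 45, 41 had a positive log2 fold change (8884 of 17358 over all genes), and the median was 1.03. For 34 of the 45 the mice did not overlap with hippocampus above (7.3% over all genes). The 12 were Ctsb, Ctsd, Ctsl, Ctsz, Cd68, Npc2, Trem2, Tyrobp, B2m, Fth1, Timp2 and Serpine2, of which the first 6 are also lysosome genes. The summed level of the program was 96240 to 108092 CPM in hippocampus and 42350 to 60111 CPM in cerebellum. Its median stayed between 0.82 and 1.17 under every alternative run.

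The best known members of the program had large fold changes with wide errors and did not pass. Apoe, the lipid carrier apolipoprotein E (chromosome 7, 19696109 to 19699188), had 16732, 14347 and 11759 CPM in hippocampus and 6393, 4788 and 3765 CPM in cerebellum. The groups did not overlap, and the log2 fold change was 1.52 ± 0.97 (adjusted p = 0.717, edgeR). It was 2.46 without the wells that held markers of other cell types (adjusted p = 0.550, edgeR) and 4.03 with the mean of log values over wells. In WT mice Apoe ran from 78.6 to 1266 CPM in hippocampus and from 416 to 7864 CPM in cerebellum. Cst7, cystatin F, an inhibitor of lysosomal cysteine proteases (chromosome 2, 150570415 to 150578944), had 2335, 2070 and 1323 CPM in hippocampus and 295, 4.43 and 64.0 CPM in cerebellum, a log2 fold change of 3.98 ± 1.49 (adjusted p = 0.626, edgeR). Within cerebellum the mice spanned a wide range, with replicate 1 highest.

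Lpl, lipoprotein lipase, had 821, 1135 and 517 CPM in hippocampus and 200, 173 and 223 CPM in cerebellum (2.05 ± 0.99, adjusted p = 0.626, edgeR). The growth factor gene Igf1 had 154, 102 and 153 CPM in hippocampus and 55.5, 1.88 and 13.9 CPM in cerebellum (2.52 ± 1.36, adjusted p = 0.636, edgeR), and without cerebellum replicate 1 the log2 fold change was 4.11. For these genes the call turned on the method. With limma-voom the adjusted p was 0.000195 for Apoe, 0.00534 for Cst7, 0.000375 for Lpl and 0.0236 for Igf1, and with the mean of log values over wells it was 1.41e-05 for Apoe and 1.52e-13 for Cst7. With DESeq2 the adjusted p was 0.826 for Apoe and 0.383 for Cst7.

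The remaining members of the activation panel did not pass either. Itgax, the integrin chain CD11c, was 1.83 ± 1.48, the receptor tyrosine kinase gene Axl 0.69 ± 1.25 and the macrophage growth factor gene Csf1 0.76 ± 1.26, with adjusted p of 0.842, 0.988 and 0.983 (edgeR). Axl had 429, 527 and 507 CPM in 5xFAD hippocampus and 404, 265 and 234 CPM in 5xFAD cerebellum, with no overlap. In WT hippocampus, which shares the fit, Axl had 0.111, 0, 20.4 and 19.2 CPM. Without the wells with markers of other cell types Axl was 1.17, and without hippocampus replicate 2 Csf1 was 0.36. Spp1, osteopontin, had 44.5, 144 and 27.7 CPM in hippocampus and 82.6, 73.8 and 91.0 CPM in cerebellum, and the mice overlapped (-0.19 ± 1.31). The chemokine gene Ccl6 had 643, 488 and 855 CPM in hippocampus and 179, 128 and 281 CPM in cerebellum (1.75 ± 0.38, adjusted p = 0.0592, edgeR), and the tetraspanin gene Cd9 was 0.65 ± 0.15 (adjusted p = 0.0776, edgeR).

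Counted by well, the program was found in more hippocampal than cerebellar wells. Each well was thinned to 50000 reads, which left out 19 hippocampal and 6 cerebellar wells with fewer, and the number of 8 activation genes (Apoe, Cst7, Lpl, Axl, Itgax, Spp1, Igf1 and Csf1) with a read was counted. At least 3 of the 8 were read in 55.8%, 62.0% and 64.3% of the wells of the hippocampal mice and in 37.3%, 15.8% and 16.9% of the wells of the cerebellar mice. The groups did not overlap, and the exact two-sided permutation test gave 0.10, the smallest p that 3 against 3 allows. The test takes the samples as independent animals, which they need not be. At full depth the shares were 66.0%, 65.5% and 71.7% in hippocampus and 40.3%, 20.3% and 27.8% in cerebellum. In WT mice the thinned share ran from 0% to 2.27% in hippocampus and from 2.63% to 16.2% in cerebellum.

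Wells with 5 or more of the 8 genes were 51 of 135 in hippocampus and 15 of 187 in cerebellum, while wells with none were 8 of 135 in hippocampus and 53 of 187 in cerebellum. Thinned Cst7 reads were found in 65.1%, 64.0% and 66.7% of hippocampal wells and in 27.1%, 5.26% and 12.7% of cerebellar wells. Thinned Apoe reads were found in 81.4%, 86.0% and 90.5% of hippocampal wells and in 62.7%, 57.9% and 50.7% of cerebellar wells. Of the 4 blank wells, 2 held a read of Apoe and 2 a read of Cst7, so a single read does not mark an expressing cell. The median well of a mouse had 958, 1841 and 9507 CPM of Apoe in hippocampus and 331, 4.70 and 12.9 CPM in cerebellum.

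**Figure D3:**
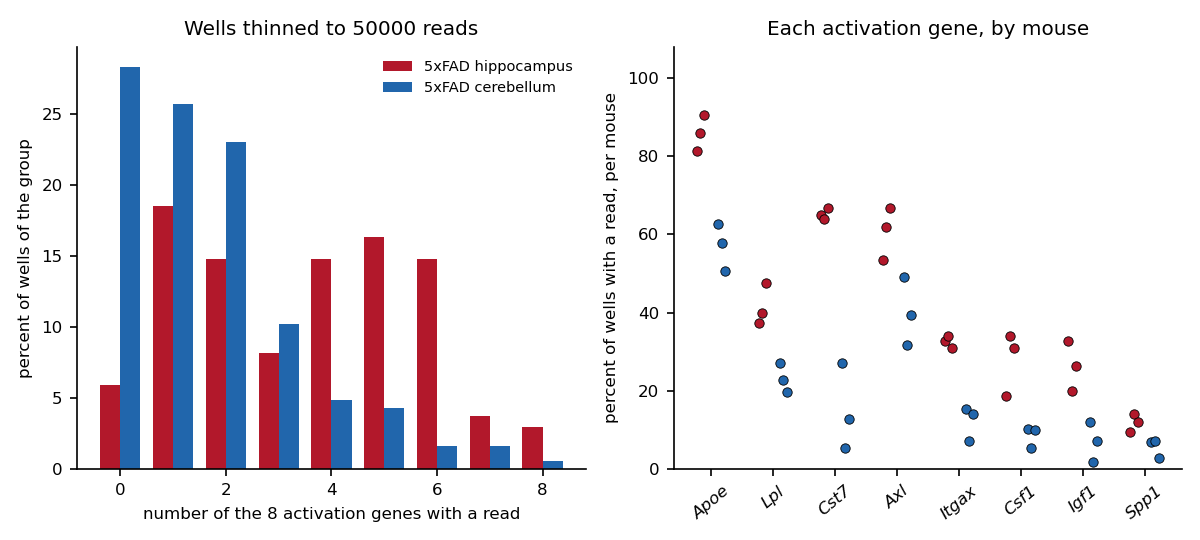
Left, percent of wells (thinned to 50000 reads) by the number of 8 activation genes with a read, 135 wells of 5xFAD hippocampus and 187 of 5xFAD cerebellum; right, percent of thinned wells with a read of each gene, 1 point a mouse, hippocampus at the left of each pair. Of the hippocampal wells 16.3% had 5 genes, and of the cerebellar wells 28.3% had none.

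Genes of secreted factors and of the matrix moved in both directions. Serpine2, protease nexin 1, an inhibitor of serine proteases (chromosome 1, 79794197 to 79861180), had 2238, 1944 and 2281 CPM in hippocampus and 1144, 501 and 594 CPM in cerebellum, a log2 fold change of 1.53 ± 0.25 (adjusted p = 0.00542, edgeR), and was read in 94.8% of hippocampal and 73.6% of cerebellar wells. With the mean of log values over wells it was 2.95. Cst3, cystatin C, had 25810, 19958 and 19910 CPM in hippocampus and 15750, 12838 and 14196 CPM in cerebellum (0.62 ± 0.10). Timp2, an inhibitor of matrix metalloproteases, was 1.17 ± 0.22 and the matricellular gene Sparc 0.52 ± 0.11. Of 30 such genes tested, these 4 were higher (0.207% over all genes), Tgfbi was lower (0.0115%) and 25 did not pass. Without the wells that held markers of other cell types 2 passed higher and 0 lower.

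Tgfbi, a matrix protein induced by TGF-beta (chromosome 13, 56609523 to 56639562), had 35.2, 23.3 and 96.3 CPM in hippocampus and 193, 303 and 262 CPM in cerebellum. The groups did not overlap, and the log2 fold change was -2.29 ± 0.47 (adjusted p = 0.0402, edgeR). Between the WT regions, which lay on separate plates, Tgfbi was -1.46 and did not pass (adjusted p = 0.151, edgeR). It was read in 10.4% of hippocampal and 24.9% of cerebellar wells. Without the wells with markers of other cell types the fold change was -1.75 and the adjusted p 0.291 (edgeR), and with the mean of log values over wells the fold change was -1.36. Lpar6, a lysophosphatidic acid receptor, had 246, 255 and 150 CPM in hippocampus and 548, 416 and 385 CPM in cerebellum (-1.05 ± 0.22, adjusted p = 0.0476, edgeR). It was read in 50% of hippocampal and 65.8% of cerebellar wells, and lost its call whichever of the 6 sums was left out. With the mean of log values over wells it was -2.05.

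Glucocorticoid-responsive genes did not pass. Tsc22d3, which encodes the glucocorticoid-induced leucine zipper protein, had 50, 19.7 and 18.8 CPM in hippocampus and 105, 183 and 102 CPM in cerebellum (-2.14 ± 0.47, adjusted p = 0.0601, edgeR), and Txnip, a thioredoxin inhibitor, was -0.996 ± 0.235 (adjusted p = 0.10, edgeR). Of 16 glucocorticoid-induced genes 0 passed, with 10 negative fold changes and a median of -0.50, which was -0.04 without cerebellum replicate 2. DESeq2 called both Tsc22d3 and Txnip lower, with adjusted p of 0.000313 and 0.00228.

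The mitochondrial genome was read more in hippocampus. Of 22 mitochondrially encoded genes tested, 8 were higher (0.207% over all genes), 0 lower and 14 did not pass, with a median of 1.10. They were the ribosomal RNAs mt-Rnr1 and mt-Rnr2, the complex I subunits mt-Nd1, mt-Nd4, mt-Nd5 and mt-Nd6, cytochrome b (mt-Cytb) and the oxidase subunit mt-Co1. mt-Nd5 had 2183, 2476 and 1732 CPM in hippocampus and 1129, 891 and 1073 CPM in cerebellum (1.05 ± 0.13, adjusted p = 0.000322, edgeR). mt-Rnr2 had 15733, 20197 and 10150 CPM in hippocampus and 6902, 7491 and 6824 CPM in cerebellum (1.12 ± 0.16), with hippocampus replicate 2 highest. The median well had 2.10%, 2.26% and 2.14% mitochondrial reads in the hippocampal mice and 1.52%, 1.77% and 1.45% in the cerebellar mice (exact two-sided permutation p = 0.10). Averaged over wells on a log scale, mt-Co1 was -0.01, the opposite sign to its 0.84 ± 0.14 in the sums, and mt-Nd1 was 0.06, mt-Nd4 0.05, mt-Cytb 0.07, mt-Rnr2 0.40 and mt-Rnr1 0.56. Stricter wells had at least 1000 genes and 50000 reads and at most 10% mitochondrial reads. There mt-Co1 was 0.466, mt-Nd1 0.491, mt-Nd4 0.495, mt-Cytb 0.447 and mt-Rnr1 0.596, and none of these passed. mt-Rnr2 was 0.702 and passed (adjusted p = 0.00907, edgeR).

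Among nuclear genes of energy metabolism and translation few passed. Of 37 nuclear-encoded respiratory chain genes 36 had a positive fold change (8884 of 17358 over all genes) and 0 passed, with a median of 0.68. Cox4i1, a subunit of cytochrome oxidase, was 0.98 ± 0.23 (adjusted p = 0.10, edgeR). Of 52 cytosolic ribosomal protein genes 44 were positive, 8 negative and 0 passed, with a median of 0.61; Rps3 was 0.64 ± 0.15 (adjusted p = 0.0965, edgeR). DESeq2 called both Cox4i1 and Rps3 higher. The elongation factor gene Eef1a1 (0.75 ± 0.16) and the ribosomal RNA gene Rn18s-rs5 (0.55 ± 0.10) passed; with the mean of log values over wells Eef1a1 was 0.08. Of 22 glycolysis genes 15 were positive and 7 negative, with a median of 0.62, and 1 passed (0.207% of all genes were higher). It was Aldoa, aldolase A, which had 564, 539 and 600 CPM in hippocampus and 252, 251 and 228 CPM in cerebellum (1.22 ± 0.20, adjusted p = 0.00577, edgeR). The hypoxia factor gene Hif1a was 1.17 ± 0.32 (adjusted p = 0.257, edgeR), and Ldhb, a lactate dehydrogenase subunit outside that list, was 0.88 ± 0.17. Ldhb passed (adjusted p = 0.0228, edgeR), but lost its call whichever of the 6 sums was left out.

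More genes were detected per well in hippocampus. At 50000 reads the median well had 2373, 2370 and 2544 genes in the hippocampal mice and 2135, 2037 and 2148 in the cerebellar mice, and gene reads per ERCC spike-in read were 501, 564 and 806 in hippocampus and 493, 432 and 462 in cerebellum (exact two-sided permutation p = 0.10 for each). The part of these differences in the mitochondrial, ribosomal and respiratory chain values was not tested.

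In the iron list of 17 genes, Fth1, the ferritin heavy chain, was the 1 that passed (0.207% of all genes were higher). It had 2459, 2612 and 1818 CPM in hippocampus and 1350, 1390 and 1222 CPM in cerebellum (0.80 ± 0.15, adjusted p = 0.0184, edgeR). With the mean of log values over wells Fth1 was 0.21. In the MHC class I list of 23 genes the 1 that passed (0.207% over all genes) was B2m, beta-2 microglobulin, the invariant light chain (chromosome 2, 122147686 to 122153083). B2m had 6283, 5622 and 5067 CPM in hippocampus and 3770, 3022 and 2710 CPM in cerebellum (0.84 ± 0.13, adjusted p = 0.00408, edgeR), and it did not pass without cerebellum replicate 3. The heavy chain gene H2-D1 had 2797, 3024 and 2946 CPM in hippocampus and 2429, 2256 and 1554 CPM in cerebellum, with no overlap, at 0.49 ± 0.19 (adjusted p = 0.626, edgeR). Other genes that passed higher were Itm2b, which encodes the BRI2 protein (0.50 ± 0.08, and 0.03 with the mean of log values over wells), Abhd12, a lysophospholipase (0.60 ± 0.12), and Plxdc2, a plexin domain transmembrane gene (0.76 ± 0.14).

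Among MHC class II genes, 5 of 10 had every cerebellar mouse above every hippocampal one (5.85% over all genes), and 0 passed. H2-Aa had 23.8, 17.1 and 5.33 CPM in hippocampus and 943, 2023 and 1298 CPM in cerebellum (-6.52 ± 2.67, adjusted p = 0.626, edgeR), and it was read in 10.4% of hippocampal and 24.4% of cerebellar wells. H2-Eb1 had 1.18, 2.25 and 4.02 CPM in hippocampus and 537, 1291 and 761 CPM in cerebellum (-8.44 ± 2.71, adjusted p = 0.515, edgeR), and Cd74, the invariant chain, was -3.52 ± 1.90. The 13 border macrophage wells were all in cerebellum. The wells with markers of other cell types also included monocyte, neutrophil and B cell kinds, and no fit left out the border macrophage wells alone. The part of each kind of well in the class II values was not tested. Of 10 class II genes 0 passed, with a median of -1.91; without the wells that held markers of other cell types the median was -0.06 and again 0 passed. Of 9 border macrophage markers tested, 8 were negative and 0 passed, with a median of -6.58, and of -1.68 over the 5 still tested without those wells.

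**Figure D4:**
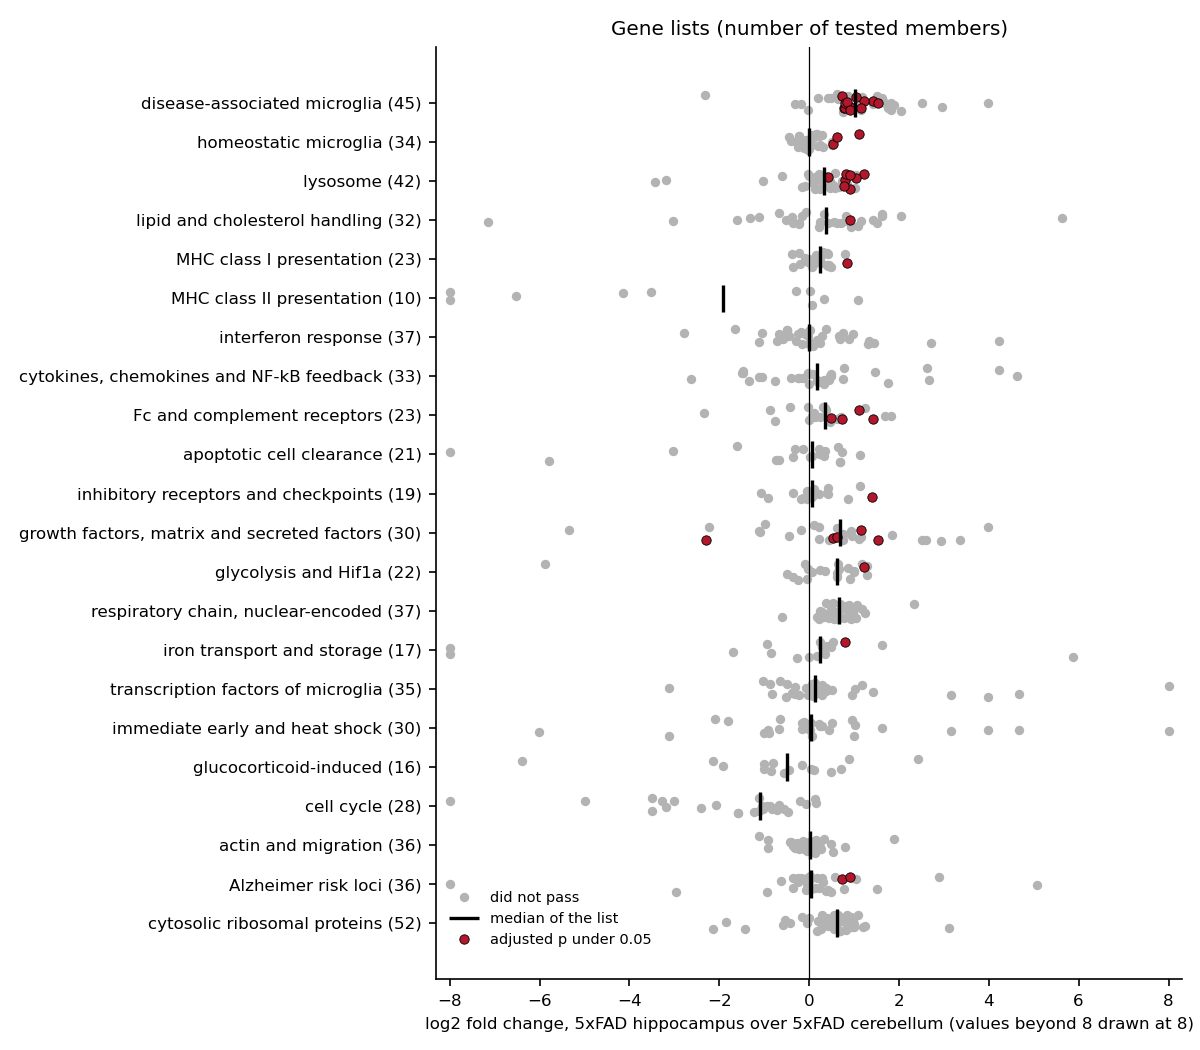
Each row is 1 of 22 gene lists with its number of tested members; a point is the log2 fold change of 1 gene, 5xFAD hippocampus over 5xFAD cerebellum, red where the adjusted p was under 0.05 and drawn at 8 where it lay beyond, and the bar is the list median. The disease-associated list has 12 red points and a median of 1.03, and the homeostatic list has its median at 0.

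Most homeostatic genes did not pass the threshold between the regions. Of 34 tested, Fcrls, Sparc and Cst3 were higher, 0 were lower and 31 did not pass (0.207% of all genes were higher). There were 16 positive and 18 negative fold changes, with a median of -0.00. P2ry12, the purinergic receptor by which microglia sense ATP, had 4938, 3977 and 4574 CPM in hippocampus and 4999, 5118 and 4692 CPM in cerebellum (-0.13 ± 0.10, adjusted p = 0.784, edgeR). Tmem119 was -0.21 ± 0.15, Csf1r, the receptor for colony-stimulating factor 1, -0.07 ± 0.06, and the fractalkine receptor gene Cx3cr1 -0.24 ± 0.09, with adjusted p of 0.791, 0.886 and 0.626 (edgeR). The mice overlapped for Tmem119 and Csf1r, while for Cx3cr1 every hippocampal mouse (5448, 5351 and 5214 CPM) lay below every cerebellar one (6283, 6720 and 5855 CPM).

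No member passed in the lists of interferon response (37 tested, median -0.01), cytokines and chemokines (33, 0.17), apoptotic cell clearance (21, 0.07), transcription factors (35, 0.14), immediate early and heat shock genes (30, 0.04), cell cycle (28, -1.09) and actin and migration (36, 0.02). Lipid handling had 1 higher of 32, Npc2, inhibitory receptors 1 of 19, Lag3, and genes at Alzheimer risk loci 2 of 36, Trem2 and Ctsb. Over all genes 0.207% were higher. The interferon median was -0.65 without hippocampus replicate 2, and the cell cycle median was -2.37 without hippocampus replicate 3 and -0.10 with the mean of log values over wells. A gene that did not pass is not shown to be equal between the regions.

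Whether the gap between the regions differed from that in WT mice was tested as the difference of the regional differences. The WT regions lay on 2 further plates, 1 for each region, so plate enters this comparison and cannot be told apart from it. Of 17358 genes 52 passed (0.3%), 43 with a larger hippocampus-minus-cerebellum value in 5xFAD (0.248%) and 9 with a smaller one (0.0518%). Of the 45 disease-associated genes 14 passed, all larger in 5xFAD, and of 42 lysosome genes 7. Each region was also set against its WT counterpart, on other plates and sharing these sums. In hippocampus 176 genes passed (1.01%), 132 higher (0.76%) and 44 lower (0.253%) in 5xFAD, among them 33 of the 45 disease-associated genes, all higher. In cerebellum 8 genes passed (0.0461%), 5 higher (0.0288%) and 3 lower (0.0173%), and 0 of the 45 were among them. Between WT hippocampus and WT cerebellum 65 genes passed (0.374%), 32 higher (0.184%) and 33 lower (0.19%), of which 5 of the lower ones were disease-associated genes.

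Tyrobp averaged 2671 ± 472 CPM in 5xFAD hippocampus and 996 ± 262 CPM in 5xFAD cerebellum (SD, n = 3 each), against 887 ± 68.5 CPM in WT hippocampus and 1284 ± 76.5 CPM in WT cerebellum (SD, n = 4 each). Its regional difference was 1.42 in 5xFAD and -0.53 in WT, which differ by 1.96 ± 0.23 (adjusted p = 0.000120, edgeR). B2m (1.61 ± 0.17, adjusted p = 4e-05), Ctsb (1.21 ± 0.15, adjusted p = 0.000132), Ctsd (1.17 ± 0.19, adjusted p = 0.00488) and Trem2 (0.77 ± 0.15, adjusted p = 0.0290) also passed (edgeR). For Ctsd the WT regional difference was 0.06, and for Trem2 it was -0.03. H2-D1 differed by 2.06 ± 0.25 (adjusted p = 0.000132, edgeR), with 0.49 in 5xFAD and -1.57 in WT. Among genes with smaller values, P2ry12 differed by -1.38 ± 0.13 (adjusted p = 4.55e-06, edgeR): the regional difference was -0.13 in 5xFAD and 1.25 in WT.

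The window before P2ry12 held both motifs once each, CACGTG and GGAAGT.
P2ry12, chr3:59262986-59263235, minus strand: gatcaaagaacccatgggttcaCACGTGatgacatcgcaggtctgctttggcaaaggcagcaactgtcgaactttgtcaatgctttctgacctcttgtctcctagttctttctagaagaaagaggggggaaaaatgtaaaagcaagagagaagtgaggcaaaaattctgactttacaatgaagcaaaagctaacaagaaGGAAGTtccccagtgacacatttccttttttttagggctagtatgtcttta

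Fcrls, Sparc and Ldhb, by contrast, had a regional difference that passed in WT as well (adjusted p = 4.885e-09, 2.14e-06 and 0.00238, edgeR). Other passing genes, such as Tgfbi (-1.46), Lag3 (0.82) and Timp2 (0.59), had WT values of the same sign as in 5xFAD. Those WT values did not pass (adjusted p = 0.151, 0.220 and 0.2405, edgeR). Fcrls was 1.11 in 5xFAD and 1.54 in WT, Sparc 0.52 in 5xFAD and 0.98 in WT, and Ldhb 0.88 in 5xFAD and 0.94 in WT. The differences of the differences were -0.43 ± 0.15 for Fcrls, -0.45 ± 0.14 for Sparc and -0.06 ± 0.22 for Ldhb, and none passed (adjusted p = 0.294, 0.264 and 1, edgeR).

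**Figure D5:**
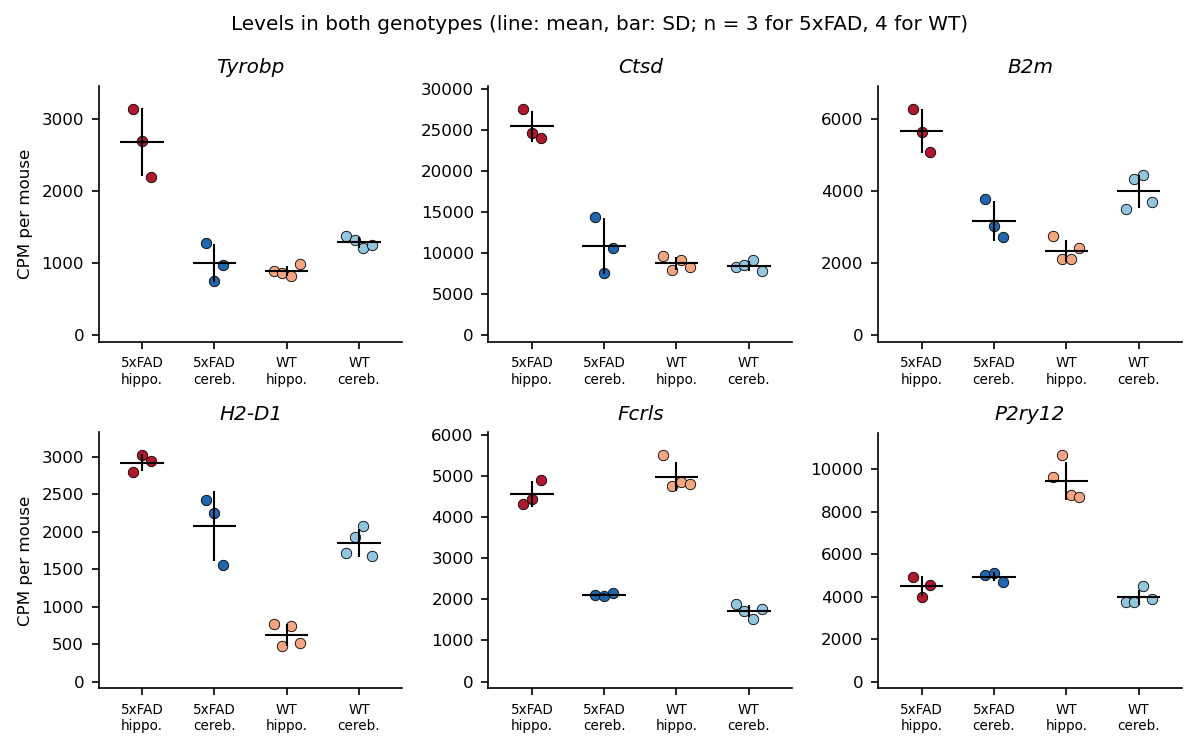
CPM per mouse of 6 genes, from left to right 5xFAD hippocampus, 5xFAD cerebellum, WT hippocampus and WT cerebellum; the line is the mean and the bar the SD (n = 3 for 5xFAD and 4 for WT). Tyrobp and Ctsd stand highest in 5xFAD hippocampus, Fcrls is higher in hippocampus in both genotypes, and P2ry12 is higher in hippocampus in WT while the regions overlap in 5xFAD.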

How the data were processed

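Single microglia were sequenced by Smart-seq2, and the deposited table holds whole-number read counts per gene and well, made by the authors with STAR 2.5.2b and featureCounts 1.5.1 on GRCm38, per the submitters' processing notes. It lists 48587 genes and 92 ERCC spike-ins in 1152 wells, 12 of them blank. The first and second plate columns of each row held sums with wells of the same row; subtracting these left 0 negative values of 4673184 (506416 when the next row was used), and the recovered wells were used.

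Kept wells were summed per replicate into 22 sums, from 14052544 reads upward in the 5xFAD regions. All sums entered 1 edgeR 4.0.16 quasi-likelihood fit (R 4.3.3) by group, with TMM scaling, filterByExpr (17358 genes tested) and Benjamini-Hochberg adjustment at 0.05; SE is the fold change over the root of F. DESeq2 1.42.0, limma 3.58.1 (voom, and log means over wells), RLE scaling, other filters, other well sets, a replicate block and leaving out each replicate were tried as alternatives. Cell measures were compared by exact permutation, with the samples taken as independent animals. Nothing states that replicates of a group are separate litters or days.

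Genes were named by rule: the 12 passing genes of each sign with the largest change (mean log2 CPM of at least 4, no overlap of mice, a read in 20% of wells), the 6 smallest p of each list, fixed homeostatic and activation genes, and 4 of each sign for the difference between genotypes. Other passing genes were named after their values were seen, and a few items are not reported here. Members and lists were chosen with earlier results of these data known. Gene spans are from GENCODE and promoter windows from RefSeq (GRCm38.p6), with 24 of the 38 passing genes matched.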

Additional observations from a re-analysis of the deposited data

Results flagged for a closer look

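The regional difference in 5xFAD, hippocampus minus cerebellum, differed from that in WT for 52 genes in edgeR's quasi-likelihood test at an adjusted p of 0.05. The WT regions lay on other plates, 1 for each region, and plate cannot be told apart from this difference.

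Among genes named in the report, the difference of the differences on the log2 scale was 1.17 for Ctsd, 1.21 for Ctsb, 1.10 for Ctsl, 1.20 for Ctsz, 0.55 for Ctss and 1.41 for Npc2, all of the lysosome. In the Trem2 complex and immune genes it was 1.96 for Tyrobp, 0.77 for Trem2, 1.34 for Ly86, 1.61 for B2m and 2.06 for H2-D1. For mitochondrial genes it was 0.91 for mt-Nd5, 0.97 for mt-Rnr2, 0.91 for mt-Co1, 1.93 for mt-Rnr1 and 1.23 for mt-Cytb. In translation and iron storage it was 0.65 for Rn18s-rs5, 1.29 for Eef1a1, 1.10 for Rps3 and 1.46 for Fth1. The secreted galectin-3 binding protein gene Lgals3bp had 2.32.

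The value was negative for P2ry12 (-1.38), for the small GTPase gene Rap1b (-1.86), for the phosphate transporter gene Slc34a2 (-1.59) and for Slc40a1, the iron exporter ferroportin (-2.44). Slc34a2 had a read in all 4 blank wells.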

How the results depend on the processing

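For 5xFAD hippocampus against cerebellum, the 38 passing genes became 349 with DESeq2, 276 with limma-voom, 5 with the sums of the contrast only, 107 with no filter on low counts and 0 with the columns as deposited (773 at an unadjusted p of 0.05). Leaving out 1 replicate gave 7 (cerebellum 3) to 38, with 12 without cerebellum 2, 16 without hippocampus 2 and 18 without hippocampus 1. For the difference between genotypes, 52 became 534 with DESeq2, 140 with limma-voom, 28 with its groups only, 186 with no filter, 80 with a stricter filter, 18 as deposited and 99 with the mean of wells, and leaving out 1 replicate gave 18 (5xFAD cerebellum 3 or hippocampus 2) to 64 (without WT cerebellum 3), with 19 without 5xFAD cerebellum 2, 29 without 5xFAD hippocampus 1, 31 without WT hippocampus 2, 32 without WT cerebellum 2 and 34 without WT hippocampus 3. With a replicate block 27 genes passed, 22 of them among the 38, and 45 in the difference. After the mean of each group was taken off, log2 CPM of same-numbered samples correlated at 0.0105, -0.00663 and 0.003 over 4668 genes. Pairs with unlike numbers gave -0.03 to 0.0266, so the check cannot say which samples share a mouse. The numbers were not taken to pair samples. The 38 kept their sign under every alternative run except mt-Co1, which was -0.0095 with the mean of wells, but not their size: 22 were over 1.5 times smaller and 5 larger with the mean of wells, and 8 were smaller with stricter wells, 3 without hippocampus 2, 2 with the columns as deposited and 1 with limma-voom. Those smaller with stricter wells included mt-Co1, mt-Nd1, mt-Nd4, mt-Cytb, mt-Rnr1 and mt-Rnr2. List medians turned sign with the mean of wells for iron (-0.06), inhibitory receptors (-0.16), clearance (-0.07) and actin (-0.17), without hippocampus 2 for cytokines (-0.02), without cerebellum 1 for immediate early genes (-0.08) and without wells with markers of other cell types for transcription factors (-0.01) and interferon response (0.24). Spp1 turned to 0.023 with stricter wells and 0.29 with the mean of wells, and ran from -1.20 to 0.19 on leaving out 1 replicate. Slc34a2 turned to -0.31 with stricter wells, -0.031 without wells with markers of other cell types and -0.093 with the mean of wells, and ran from -0.0832 to 0.14 on leaving out 1 replicate. Using only the groups of a contrast changed the genes tested (13065 against 17358) along with the spread, and 1013 adjusted p were not given by DESeq2; the causes were not tested.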
